A study of Gallus gallus with 5 samples.

Results

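The genes described here carry innate immune sensing. They comprise interferon receptors with their JAK kinases, STATs and SOCS inhibitors, interferon regulatory factors, and genes of cytosolic nucleic acid sensing. Also included are interferon-stimulated genes, Toll-like receptors with their adaptors, and the NF-kB subunits with their regulators. The list holds 49 genes. A gene entered through array probe sets annotated with that symbol alone, which gave 46 of the 49 genes, among 13009 genes named on the array, and 87 of its 38439 probe sets. STAT2, IRF10 and USP18 had no such probe set and were not analysed here.

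The cells were DT40, a chicken B cell line derived from a bursal lymphoma induced by an avian leukosis virus and used for its efficient gene targeting. By their labels, 1 Affymetrix array measured cells lacking the linker histone variant H1L, 2 arrays measured cells lacking the variant H1R, and 2 arrays measured wild-type cells (WT). The labels name no treatment, and RNA came from exponentially growing cells in ordinary medium with serum. Linker histones bind DNA where it enters and leaves the nucleosome, and the study looked for genes whose expression follows a single variant. Replicates 1 of H1R and WT share one date code (date code 1), and replicates 2 of both share another with the array labelled H1L (date code 2). Nothing in the labels ties the replicates to separate cultures or clones. The p-values therefore measure spread among these arrays alone, and that spread may be technical.

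In this pathway, receptors for foreign nucleic acid or bacterial products signal through adaptors and kinases to interferon regulatory factors and NF-kB. Secreted interferon then acts through its receptors, JAK kinases and STATs to induce antiviral genes such as MX1, and the SOCS proteins and TNFAIP3 restrain the signal. B cells use several of the same factors in their own development: IRF8 and IRF4 are regulators of B cell differentiation, and REL, the avian c-Rel, is abundant in lymphoid cells.

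Values were GCOS signal intensities per probe set on a linear scale. The median signal was 19.3 on the array labelled H1L, 19.9 and 22.4 on the H1R arrays, and 19.9 and 20.7 on the WT arrays. A background limit was set for each array as the highest signal among 23 control probe sets for which chicken RNA holds no target: 23 for H1L, 18 and 33.6 for H1R, and 29.2 and 21.4 for WT. Above it lay 45.8% of all probe sets for H1L, 52.5% and 41.2% for H1R, and 41% and 49.2% for WT. For actin, the signal at the 3' end over that at the 5' end, which depends on RNA integrity, was 2.01 for H1L, 3.87 and 2.25 for H1R, and 2.81 and 2.02 for WT. Its part in the results was not tested. Of 13 B cell markers with a probe set, 12 were above the limit on all 5 arrays and 0 were below it on all. Their summed signal was 14696.4 for H1L, 10926.3 and 11884.6 for H1R, and 11936.5 and 19846.3 for WT. Within it, CD79B read 1216.1 and 1347.6 in H1R and 2021.7 in H1L, against 3263.8 and 3744.7 in WT. Of 9 T cell markers 2, of 8 myeloid markers 1 and of 9 fibroblast markers 2 were above the limit on all 5 arrays. CD4, LCK, ZAP70, CSF3R, MRC1, CD83, COL6A1, LUM, DCN and POSTN were above it on none. Summed signals of the myeloid markers were 953.7 for H1L, 523.2 and 519.8 for H1R, and 145.6 and 423.5 for WT, and those of the fibroblast markers 256.7 for H1L, 557.4 and 687.6 for H1R, and 185.3 and 186.5 for WT. Those of the T cell markers were 2259 for H1L, 1584.3 and 1011.6 for H1R, and 2571.1 and 4368.4 for WT. Few genes carried much of the differences in these sums. Without MMP9 the myeloid sum was 160.4 for H1L, 277 and 130.7 for H1R, and 121.5 and 362.3 for WT. Without COL1A2 and MMP2 the fibroblast sum was 136.4 for H1L, 131.2 and 125.1 for H1R, and 170.2 and 156.9 for WT. Without CD3D the T cell sum was 350.4 for H1L, 369.3 and 280.8 for H1R, and 143 and 327.7 for WT. Within that remainder, CD5 went the opposite way to CD3D. CD5 read 246 and 208.3 in H1R and 229.7 in H1L, against 17.7 and 36.1 in WT. The part of these other markers in the results below was not tested. In bulk RNA, fewer cells of a type and less RNA per cell cannot be told apart.

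The deletions could not be checked on the array. The probe set of HIST1H111L read 2295.3 on the array labelled H1L, against 1320 and 2034.8 in WT. That of HIST1H111R read 28.9 and 7 on the H1R arrays, against 36.1 and 39.4 in WT. Near-identical H1 transcripts may bind either probe set, and the labels tie neither symbol to a deletion. Directions given below therefore rest on the labels, and H1L and H1R stand for the arrays so labelled.

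With each gene represented by its brightest probe set, 18 of the 46 genes were above the background limit on all 5 arrays, 16 on some arrays, and 12 on none. The receptor, JAK, STAT and SOCS group had 6 of 10 genes above the limit on all arrays, and the adaptors and kinases had 4 of 5. The NF-kB group had 4 of 8, the Toll-like receptors 2 of 6 and the interferon regulatory factors 2 of 5. Of 8 interferon-stimulated genes and 4 genes of cytosolic nucleic acid sensing, 0 passed on all arrays, and 6 and 2 of them passed on none. The number of genes above the limit was 23 for H1L, 29 and 21 for H1R, and 21 and 29 for WT. It varied as much between replicates of one genotype as between genotypes. The count was 29 on the arrays with the lowest limits, 18 and 21.4, and 21 on those with the highest, 29.2 and 33.6. It therefore depends on the limit of each array. Signals of different probe sets were not set against each other, since each binds its target with its own efficiency.

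**Figure D1:**
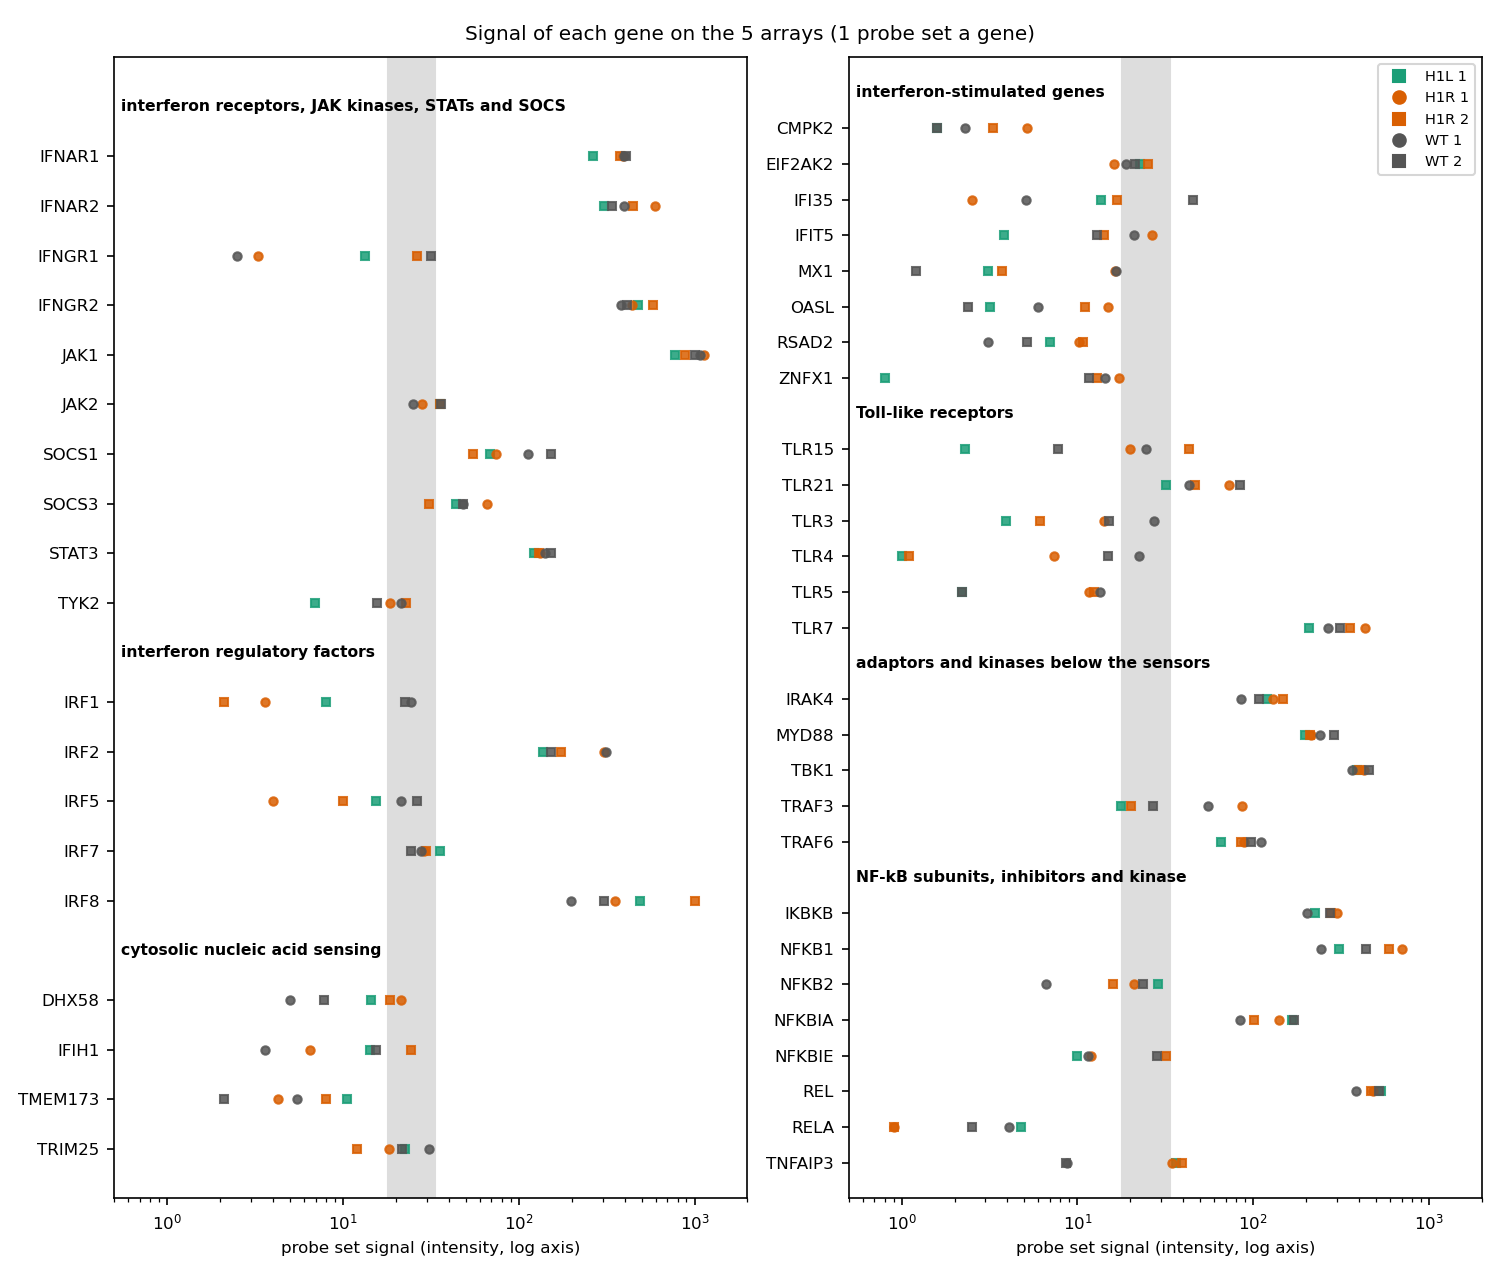
Probe set signal of each of the 46 genes on the 5 arrays (log axis, intensity), by functional group. Colour gives the genotype, circles are arrays of date code 1 and squares arrays of date code 2, and the grey band spans the background limits of the arrays, 18 to 33.6. JAK1, REL and TBK1 lie well right of the band on every array, whereas MX1, OASL and RSAD2 lie left of it on every array.

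Among the 59 probe sets bright enough to test, which cover 34 of the genes, limma called 0 different in H1R against WT, 0 in H1L against WT and 0 in H1L against H1R at an adjusted p under 0.05. Over all 23053 probe sets tested, the share called was 1.15%, 0.2% and 0.00434% in these comparisons. At an unadjusted p under 0.05, H1R against WT gave 3 probe sets higher and 3 lower (5.08% each of the 59), against 6.13% higher and 4.09% lower over all probe sets. For H1L against WT the counts were 2 higher and 2 lower, with 2.16% and 4.73% over all, and for H1L against H1R 0 higher and 6 lower, with 1.23% and 4.32% over all. The H1L shares were 3.39% each way against WT, and 0% higher and 10.2% lower against H1R. The median log2 fold change of the 59 was 0.02 for H1R against WT and -0.22 for H1L against WT, against 0.09 and -0.05 over all probe sets. For H1L against H1R it was -0.20, against -0.15 over all. Of the 59 probe sets, 6 passed the filter on dim signals only through the deletion arrays, DHX58 and TNFAIP3 among them, so these had to read higher in a deletion. TNFAIP3 was 1 of those counted higher against WT at an unadjusted p under 0.05, in both deletions. Conversely, probe sets of IRF1, IFIH1, TLR3, TLR4 and TLR21 averaged above the filter in WT but were left out through dim deletion arrays. The counts and medians do not include them.

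**Figure D2:**
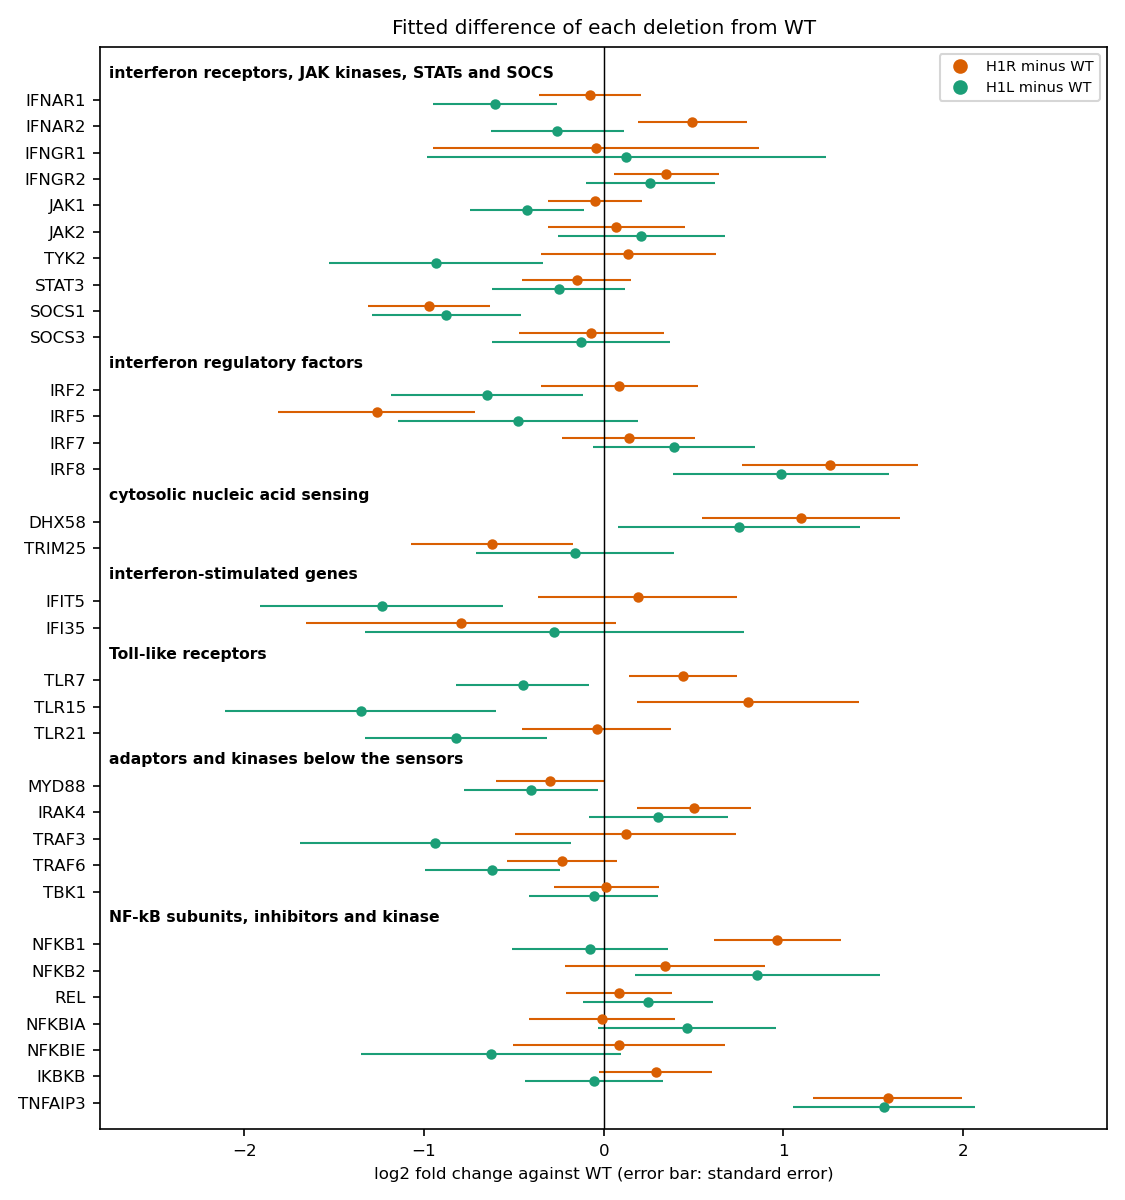
Fitted log2 fold change of the brightest probe set of each tested gene for H1R against WT (orange) and H1L against WT (green). EIF2AK2, tested but above the background limit on no array, is left out. Bars are 1 standard error, and positive values are higher in the deletion. TNFAIP3 and IRF8 lie right of 0 and SOCS1 left of 0 in both comparisons, and no gene passed the limma threshold.

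The standard error of a member's log2 fold change had a median of 0.40 for H1R against WT and 0.50 for H1L against WT. Differences of at least 1 log2 unit were found in H1R for 4 probe sets higher and 3 lower, against 5.14% and 4.27% over all probe sets, and in H1L for 1 higher and 4 lower, against 4.29% and 6.39%. Of the 4 higher in H1R, 3 (TNFAIP3, DHX58 and a TRIM25 probe set) passed the filter only through the deletion arrays, which fixed their direction, as did the 1 in H1L, TNFAIP3. The other was IRF8. Of the 59, the H1R and WT arrays did not overlap for 13 probe sets with H1R higher and 14 with H1R lower. Over all probe sets the shares were 24.9% and 14.5%. The 13 include TNFAIP3, DHX58 and the TRIM25 probe set that were tested only through the deletion arrays. Some genes count more than once, IFNAR2 and IFNGR2 among the 13 and STAT3, TRAF6 and IFNAR1 among the 14. IFNGR2 and TRIM25 have probe sets in both counts. Within date codes, 18 of the 59 read higher and 17 lower in H1R on both, together 59.3%, against 61% of all probe sets tested. By direction, 8627 of all 23053 probe sets read higher on both and 5426 lower, so the members leaned less to the higher side.

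IRF8, a transcription factor of B cells and myeloid cells, read 353.4 and 1004.3 in H1R and 491.9 in H1L, against 197.8 and 305.2 in WT. Every deletion array was above both WT arrays, but replicate 2 of H1R stood far above the others. In H1R the log2 fold change was 1.26 ± 0.49 (limma adjusted p = 0.422). It was 0.82 on date code 1 and 1.70 on date code 2. With the date code as a block in the fit, which called 3.65% of all probe sets, IRF8 was the 1 probe set of the 59 past the threshold (limma adjusted p = 0.029). The blocked fit has 1 residual degree of freedom, so this call rests on very few arrays. Without replicate 2 of H1R the log2 fold change was 0.51, and without replicate 1 of H1R 2.01. In H1L the log2 fold change against WT was 0.98 ± 0.60 (limma adjusted p = 0.855), with 0.68 within date code 2.

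TNFAIP3 encodes A20, an enzyme that edits ubiquitin chains and restrains NF-kB. It read 34.6 and 39.5 in H1R and 36.4 in H1L, against 8.7 and 8.6 in WT. The 3 deletion arrays were above their background limits and both WT arrays below theirs, so the groups did not overlap. The fitted log2 fold change was 1.58 ± 0.41 for H1R and 1.56 ± 0.51 for H1L (limma adjusted p = 0.179 and 0.558). Measured against the limit, it was at least 1.48-fold higher in H1R and at least 1.46-fold higher in H1L than in WT. These folds come from a gene tested only because its deletion arrays are bright. With the block, the adjusted p for H1R was 0.0906.

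NFKB1, precursor of the p50 subunit, read 701.5 and 589.8 in H1R and 309.1 in H1L, against 241.8 and 440.1 in WT. H1R was above both WT arrays, and H1L lay between them. The log2 fold change of H1R against WT was 0.97 ± 0.35 (limma adjusted p = 0.381), with 1.52 on date code 1 and 0.42 on date code 2. Replicate 1 of WT set much of it: without it the value was 0.54, and without replicate 2 of WT it was 1.39. Against H1R, H1L was lower by a log2 fold change of -1.04 ± 0.43 (limma adjusted p = 0.888).

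SOCS1, the inhibitor of JAK kinases that interferon induces, read 74.5 and 54.6 in H1R and 68.6 in H1L, against 112.2 and 152 in WT. All 3 deletion arrays were below both WT arrays. The log2 fold change was -0.97 ± 0.34 for H1R (limma adjusted p = 0.345) and -0.88 ± 0.41 for H1L (limma adjusted p = 0.77). For H1R it was -0.56 on date code 1 and -1.39 on date code 2. SOCS3, a relative that restrains cytokine signals through STAT3, read 66.3 and 31 in H1R and 43.7 in H1L, against 48.4 and 48 in WT.

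**Figure D3:**
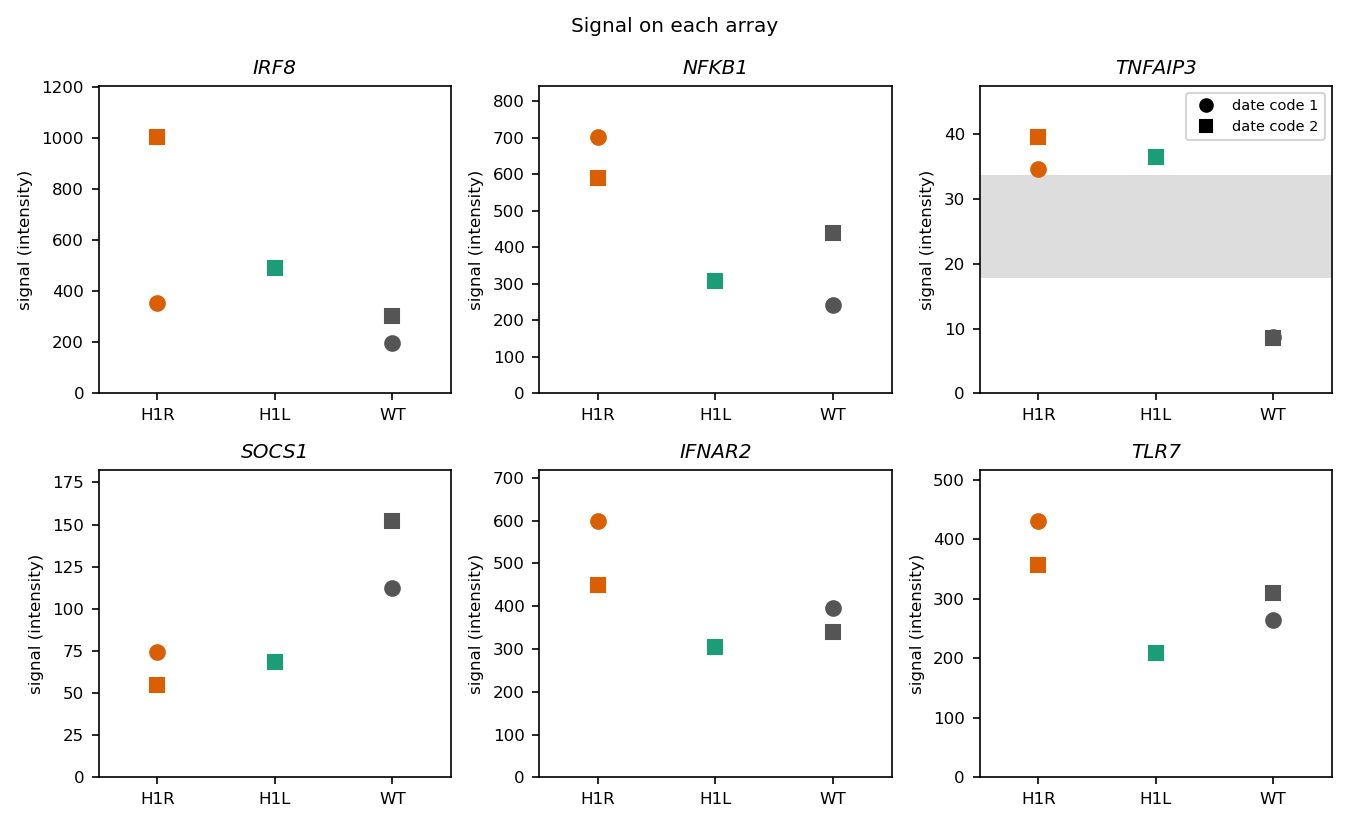
Signal (intensity, linear axis from 0) on each array for IRF8, NFKB1, TNFAIP3, SOCS1, IFNAR2 and TLR7, with H1R left, H1L in the middle and WT right; circles are date code 1 and squares date code 2. In the TNFAIP3 panel the grey band spans the background limits, and the WT arrays at 8.7 and 8.6 lie below it.

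Of the interferon receptor genes, 3 were above the limit on every array and IFNGR1 was not. IFNAR1 and IFNAR2, the chains of the type I receptor, and IFNGR2, a chain of the interferon gamma receptor, lie close together on chromosome 1 in the RefSeq assembly GRCg7b, with IL10RB between IFNAR2 and IFNAR1. IFNAR2 read 598.7 and 448.6 in H1R and 305.6 in H1L, against 395.1 and 340 in WT. In this probe set H1R was above both WT arrays and H1L below both (log2 fold change in H1R 0.49 ± 0.30, limma adjusted p = 0.683). Another IFNAR2 probe set, above the limit on every array, read 88.1 and 77.1 in H1R and 55.5 in H1L, against 75.9 and 44.8 in WT. There H1L lay between the WT arrays. In the dimmest, also above the limit throughout, H1R read 71.2 and 55.3 and overlapped WT at 61.8 and 48.2. IFNAR1 read 390.1 and 375.2 in H1R and 263 in H1L, against 398.6 and 407.5 in WT. The H1L value was the lowest (log2 fold change in H1L -0.61 ± 0.35, limma adjusted p = 0.837). IFNGR2 read 442.5 and 578.3 in H1R and 475.1 in H1L, against 381.9 and 411.4 in WT. Its 5 tested probe sets ran from -1.06 to 0.74 in the log2 fold change of H1R against WT. The 5 therefore do not give a single direction. The negative value came from a dim probe set, at 18.8 and 7.9 in H1R, against 35.1 and 29.6 in WT. Those above the limit on every array gave 0.35, 0.07 and 0.74, and another dim one gave 0.54. IFNGR1, the other chain, was above the limit on 1 array, replicate 2 of WT at 31.8, and read 26.5 on replicate 2 of H1R, 3.3 on replicate 1 of H1R, 13.4 in H1L and 2.5 on replicate 1 of WT.

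The JAK kinases and STAT3 relay the signal from these receptors. JAK1 read 1131.8 and 887.5 in H1R and 769.4 in H1L, against 1067.6 and 1006.2 in WT (log2 fold change of H1R against WT -0.05 ± 0.26). STAT3 read 131.4 and 131.1 in H1R and 122.1 in H1L, against 140.3 and 152.6 in WT, and JAK2 read 28.3 and 35.9 in H1R and 35.7 in H1L, against 24.9 and 36.2 in WT, near the limit. A second JAK2 probe set read 21.5 and 17.9 in H1R and 1.5 in H1L, against 19.9 and 20 in WT, with replicate 1 of H1R alone above its limit. TYK2, which pairs with the type I receptor, read 18.5 and 23 in H1R and 6.9 in H1L, against 21.3 and 15.6 in WT, at or near background.

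Among the regulatory factors, IRF2, a repressor of interferon responses, differed by date code in its brightest probe set, which read 307.4 and 174.8 in H1R and 137.1 in H1L, against 311.7 and 152.3 in WT. Both date code 1 arrays were close to each other and above all 3 of date code 2. Another IRF2 probe set, above the limit on every array, was also higher on the date code 1 arrays. It read 135 and 102.5 in H1R and 93.6 in H1L, against 177.3 and 102.9 in WT. A dimmer probe set, also above the limit on every array, did not show this. It read 26.1 and 48.2 in H1R and 49.3 in H1L, against 64.7 and 37.4 in WT. In the brightest, the log2 fold change of H1L against WT was -0.65 ± 0.54 over all arrays and -0.15 within date code 2. IRF5, which acts below Toll-like receptors, read 4 and 10 in H1R and 15.5 in H1L, against 21.3 and 26.5 in WT, with a single array above the limit, replicate 2 of WT. Its log2 fold change of H1R against WT was -1.26 ± 0.55 (limma adjusted p = 0.488), and no fold could be bounded. IRF1, which is induced by interferon, was too dim to test, at 3.6 and 2.1 in H1R and 8 in H1L, against 24.5 and 22.6 in WT. IRF7, which drives type I interferon transcription, read 29 and 29.6 in H1R and 35.9 in H1L, against 27.8 and 24.5 in WT.

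The genes of cytosolic nucleic acid sensing were near background. IFIH1, known as MDA5, which detects long double-stranded RNA, read 6.5 and 24.5 in H1R and 14.2 in H1L, against 3.6 and 15.5 in WT. DHX58, a helicase known as LGP2, read 21.4 and 18.5 in H1R and 14.5 in H1L, against 5 and 7.8 in WT. Replicate 1 of H1R was the one array above its limit, so no fold is given, and the gene was tested only through its deletion arrays (limma adjusted p = 0.576 for H1R against WT). TMEM173, known as STING, was above the limit on no array, with 4.3 and 8 in H1R, 10.5 in H1L, and 5.5 and 2.1 in WT. TRIM25, a ubiquitin ligase that in mammals activates the sensor RIG-I, read 18.2 and 12 in H1R and 22.6 in H1L, against 30.7 and 21.8 in WT. Its 3 tested probe sets, all near background, disagreed, and their log2 fold changes of H1R against WT ran from -0.62 to 1.24.

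The interferon-stimulated genes gave little signal in any genotype. MX1, an antiviral GTPase, read 16.4 and 3.7 in H1R and 3.1 in H1L, against 16.6 and 1.2 in WT, all below the limit. RSAD2, viperin, read 10.2 and 10.8 in H1R and 7 in H1L, against 3.1 and 5.2 in WT, and CMPK2, its neighbour on chromosome 3 in GRCg7b, read 5.2 and 3.3 in H1R and 1.6 in H1L, against 2.3 and 1.6 in WT. OASL, an oligoadenylate synthetase family member, read 14.9 and 11.1 in H1R and 3.2 in H1L, against 6 and 2.4 in WT. All of these values lay below the limits. EIF2AK2, the kinase PKR, read 16.1 and 25.3 in H1R and 22.8 in H1L, against 18.9 and 21.3 in WT, also at or below the limits. Of the group, IFIT5 and IFI35 were above the limit on 1 array each: IFIT5, which binds viral RNA in mammals, on replicate 1 of H1R, and IFI35 on replicate 2 of WT. IFIT5 read 26.6 and 14.2 in H1R and 3.8 in H1L, against 20.9 and 12.9 in WT. A second IFIT5 probe set, too dim to test, was below the limit on every array. It read 6.1 and 8.5 in H1R and 2.4 in H1L, against 1.8 and 2.5 in WT, so the low H1L value was not repeated there. IFI35 read 2.5 and 16.8 in H1R and 13.7 in H1L, against 5.1 and 45.4 in WT. ZNFX1, a helicase, read 17.3 and 12.9 in H1R and 0.8 in H1L, against 14.3 and 11.7 in WT, below the limit throughout.

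Toll-like receptors split into TLR7 and TLR21, above the limit on all arrays, and TLR3, TLR4 and TLR5, above it on none. TLR7, which detects single-stranded RNA, read 430.6 and 356.2 in H1R and 208.5 in H1L, against 265.3 and 310.8 in WT. H1R was above both WT arrays and H1L below both, with a log2 fold change of 0.44 ± 0.30 for H1R and -0.45 ± 0.37 for H1L against WT. The difference of H1L against H1R was -0.89 ± 0.37 (limma adjusted p = 0.888), so the 2 deletions were not shown to differ. TLR21, the chicken receptor for CpG DNA, read 73.1 and 46.8 in H1R and 31.7 in H1L, against 42.9 and 84.2 in WT; H1R was above WT on date code 1 and below it on date code 2. TLR15, which occurs in birds and reptiles, read 19.8 and 43.1 in H1R and 2.3 in H1L, against 24.7 and 7.8 in WT. H1L was below its limit and the H1R arrays above theirs, which made it at least 1.27-fold lower than H1R (log2 fold change -2.15 ± 0.75, limma adjusted p = 0.865). Its other probe sets, below the limit on every array and too dim to test, did not repeat the low H1L value. The brighter read 6.1 and 12.6 in H1R and 11.4 in H1L, against 4.5 and 2.7 in WT. The dimmer read 3.6 and 2.5 in H1R and 4 in H1L, against 2.8 and 9.7 in WT. TLR3, a receptor for double-stranded RNA, read 14.2 and 6.1 in H1R and 3.9 in H1L, against 27.4 and 15.2 in WT. TLR4, the receptor for lipopolysaccharide, read 7.4 and 1.1 in H1R and 1 in H1L, against 22.5 and 15 in WT. TLR5, the flagellin receptor, read 11.6 and 12.4 in H1R and 2.2 in H1L, against 13.5 and 2.2 in WT.

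The adaptors were measured on all arrays apart from TRAF3. MYD88, the adaptor of most Toll-like receptors, read 213.6 and 210.9 in H1R and 196.8 in H1L, against 238.2 and 288.9 in WT. A second probe set of MYD88 read 32.4 and 68.8 in H1R and 81.5 in H1L, against 31.1 and 69.7 in WT, so the direction for H1L differed between them. IRAK4, the kinase that MYD88 recruits, read 128.7 and 148.1 in H1R and 119.7 in H1L, against 85.4 and 107.7 in WT (log2 fold change of H1R 0.50 ± 0.32, limma adjusted p = 0.696). All 3 deletion arrays were above WT in this probe set, but a second one of IRAK4, above the limit on every array, read 88.8 and 96.5 in H1R and 79.9 in H1L, against 114.2 and 88.3 in WT. TBK1, which phosphorylates interferon regulatory factors, read 425 and 398 in H1R and 391.5 in H1L, against 362.4 and 457.4 in WT (log2 fold change of H1R 0.01 ± 0.29). TRAF6, a ubiquitin ligase, read 88.3 and 85.7 in H1R and 65.2 in H1L, against 110.2 and 96.7 in WT, and a second probe set of it read 14.8 and 22 in H1R, 25.4 in H1L, and 57.5 and 46.3 in WT. Both H1R arrays were below their limits there, which made H1R at least 2.10-fold lower (limma adjusted p = 0.263). TRAF3, which also restrains noncanonical NF-kB signalling, read 85.9 and 20.2 in H1R and 17.7 in H1L, against 55.4 and 27 in WT. The date code 1 arrays were above those of date code 2. H1L was below its limit, and so at least 1.68-fold lower than WT over all arrays, with a log2 difference of -0.48 within date code 2. All 3 probe sets of TRAF3 were below the limit in H1L, at 17.7, 17.1 and 1.3, and the last of these allows no fold against WT (limma adjusted p at least 0.558).

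Apart from TNFAIP3, no tested gene of the NF-kB group differed from WT by 1 log2 unit in its brightest probe set. REL read 481.8 and 465.9 in H1R and 530.1 in H1L, against 382.7 and 519 in WT (log2 fold change of H1R 0.09 ± 0.29). NFKBIA, the inhibitor that NF-kB itself induces, read 139.5 and 101.3 in H1R and 167.2 in H1L, against 83.6 and 170.6 in WT; H1R was above WT on date code 1 and below it on date code 2. IKBKB, a kinase that marks the inhibitors for destruction, read 297.6 and 278.2 in H1R and 225.6 in H1L, against 200.9 and 273.9 in WT. NFKB2, precursor of the p52 subunit, read 21.1 and 15.9 in H1R and 28.6 in H1L, against 6.6 and 23.7 in WT, near background. NFKBIE, another inhibitor, read 11.9 and 31.7 in H1R and 10 in H1L, against 11.5 and 28.3 in WT, with replicate 2 of WT the one array above its limit. RELA, the p65 subunit, was above the limit on no array, at 0.9 and 0.9 in H1R, 4.8 in H1L, and 4.1 and 2.5 in WT.

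**Figure D4:**
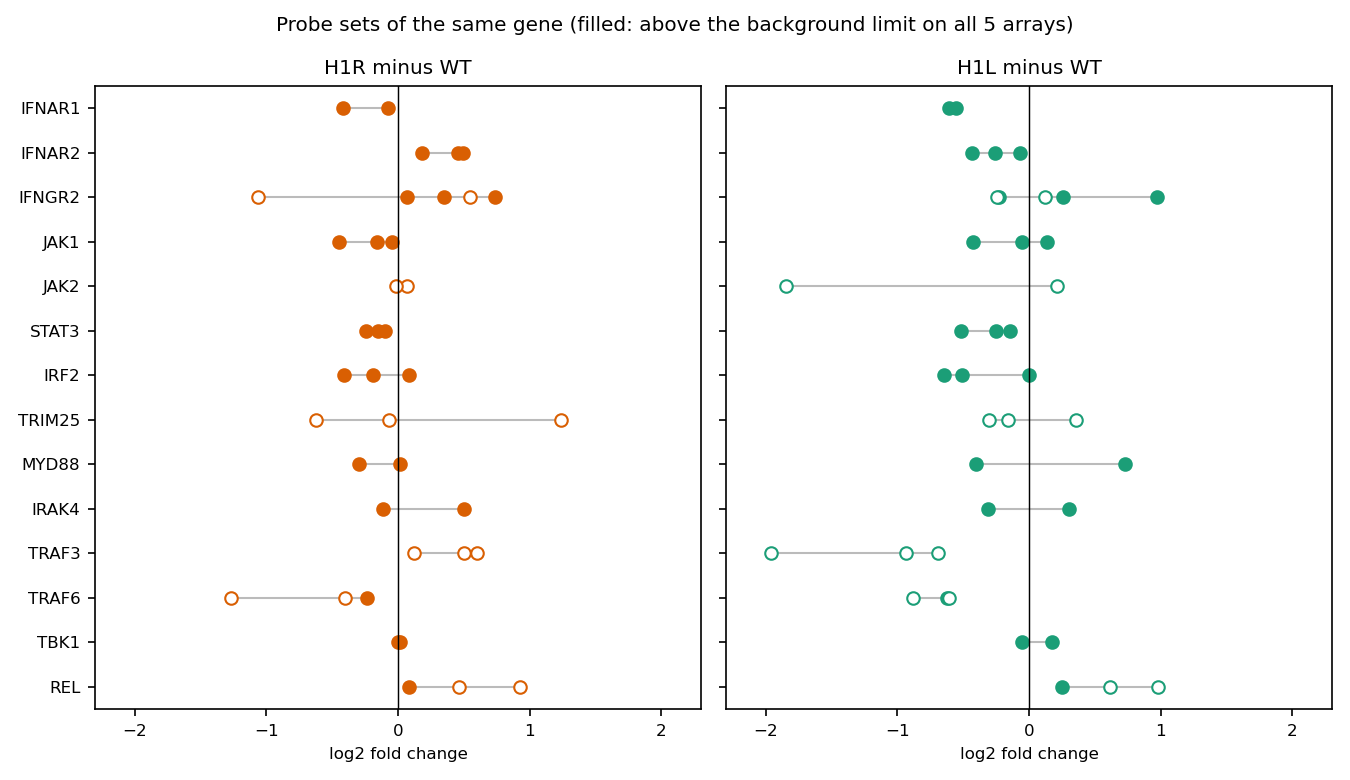
Log2 fold change of each tested probe set (points) of genes with several, for H1R against WT (left) and H1L against WT (right); filled points are above the background limit on all 5 arrays, and lines join probe sets of a gene. Those of STAT3, IFNAR2 and TBK1 lie close together, and those of IFNGR2 and TRIM25 spread over both sides of 0 on the left.

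Between the deletions, 8 of the 59 probe sets were lower in H1L, with its 1 array, by at least 1 log2 unit and 0 higher. Over all probe sets the shares were 6.22% and 3.22%. TRAF3 gave 3 of the 8, and the others were single probe sets of JAK2, TYK2, IFIT5, TLR15 and NFKB1. Of the 8, that of NFKB1 alone was above the limit on every array. For those of JAK2, TYK2 and IFIT5 no fold could be bounded. The median over all probe sets was itself -0.15 and came to -0.00397 after quantile normalization. Relative to that median, 5 were lower and 0 higher by at least 1 log2 unit, against 4.52% and 4.66% of all probe sets. These 5 belong to JAK2, IFIT5, TLR15 and TRAF3. In the other probe sets of JAK2 and TLR15, H1L did not read below both H1R arrays. H1L was measured on date code 2 alone, and H1R on both date codes. With the date code as a block, the log2 fold change of the brightest TRAF3 probe set went from -1.06 to -0.38. With the block, those of NFKB1, TLR15, IFIT5 and TYK2 were -1.19, -2.09, -1.12 and -1.05. The part of the date code was not tested.

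In a wider list of 103 genes of the same pathways, 67 had a probe set and 92 probe sets of 49 genes were tested. limma called 0 higher and 1 lower in H1R against WT, and 0 in the comparisons of H1L with WT and with H1R. The 1 call is 1.09% of the 92, against 1.15% of all probe sets. At an unadjusted p under 0.05 H1R against WT gave 8 higher and 2 lower (8.70% and 2.17%), against 6.13% and 4.09% of all probe sets. The H1L counts were 2 higher and 2 lower against WT (2.17% each, against 2.16% and 4.73% of all), and 0 higher and 3 lower against H1R (3.26% lower, against 1.23% higher and 4.32% lower of all). The gene called was IRF4, which drives plasma cell differentiation: it read 636.8 and 502.7 in H1R and 696.4 in H1L, against 2621.1 and 2804.9 in WT. Its log2 fold change was -2.25 ± 0.25 for H1R (limma adjusted p = 0.00565) and -1.95 ± 0.31 for H1L (limma adjusted p = 0.0835).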

How the data were processed

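The authors deposited signal intensity per probe set on a linear scale, made with GCOS per the submitters' processing notes; neither its version nor its scaling is given in the sources used here. Left out were 96 control probe sets. Genes were named from probe sets with 1 symbol in the platform's annotation (27168), and all 46 genes matched RefSeq GRCg7b by gene number.

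Values were tested as log2(signal + 5.6), the 25th percentile, so folds of dim probe sets are understated, and probe sets with a mean signal above 13.4, the 40th percentile, entered (23053). The groups were compared with limma (version 3.58.1, R 4.3.3) in a single linear model of the 5 arrays, with trended eBayes moderation (2 residual and 6.02 prior degrees of freedom), with Benjamini-Hochberg adjustment over all probe sets and a threshold of 0.05. Tests of H1L, with 1 array, take its spread from the other groups. Errors are standard errors. The fit was also run on simulated arrays with a common spread, where H1R alone was given changes. These were larger than any member's fitted difference of H1R against WT. That run does not check differences of the size found here for H1R against WT, nor the tests of H1L.

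Deviations of same-numbered H1R and WT arrays from their group means correlated at 0.189, and these arrays share a date code, so numbers were taken to pair them and a date code block was also fitted. The members, lists and wider list were chosen with earlier results of these data known, and the background limit was chosen after the data were seen. Values on every array were due for the largest differences each way and for the brightest and dimmest gene of each group; further genes were added after their values were seen. A fold is given as at least N where every array of the dim group was at or below the limit. No sequence was used here, so a planned search of promoters for motifs was not run. The alternatives were other scaling, filters, pseudocounts and moderation, probe sets averaged per gene, the block, and leaving out each replicate. The number of arrays limits the precision.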

Additional observations from a re-analysis of the deposited data

How the results depend on the processing

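With 1 or 2 arrays a group, no alternative settles a single gene, and probe sets near the background limit carry little order. limma called 0 of the members in each comparison under every alternative, except that the replicate block, the shared date code, called 1 in H1R against WT, IRF8; the pairing changed no other member's call. Over all probe sets the calls for H1R against WT, 266, became 105 with no filter, 138 without a trend and 841 with the block, and lay between 81 (without replicate 1 of WT) and 326 when a replicate was left out. For H1L against WT, 46 became 10 with no filter, 27 with a pseudocount of 1, 0 without a trend and 111 with the block, and lay between 2 and 125 with a replicate left out. For H1L against H1R, 1 became 2 after quantile normalization or with the median as pseudocount, 0 without a trend and 29 with the block, and lay between 0 and 32. Members differing by at least 1 log2 unit in H1R against WT, 7, became 11 with no filter, 2 with the stricter filter, 11 with a pseudocount of 1, 1 with the median as pseudocount and 4 when averaged per gene, and lay between 9 and 11 with a replicate left out. In H1L against WT, 5 became 8 after quantile normalization or median scaling, 12 with no filter or a pseudocount of 1, and 0 with the stricter filter or the median as pseudocount, and lay between 5 and 16. In H1L against H1R, 8 became 5 after either scaling or averaging, 13 with no filter and 3 with the stricter filter or the median as pseudocount, and lay between 8 and 15. The log2 fold change of IFI35 in H1R against WT ran from -1.92 to 0.33 (without replicate 2 of WT) with a replicate left out; in H1L against H1R it was -0.41 with the block and ran from -0.21 (without replicate 1 of H1R) to 1.25. That of TRIM25 in H1R against WT turned to 0.18 when averaged per gene. The causes were not tested. The other 264 values of single genes kept direction and side of the threshold. All these values cover only the genes with the largest differences each way in a comparison. Some members outside that set also changed direction between settings. NFKBIA in H1R against WT ran from -0.50 to 0.48, and IFNGR1 in H1L against WT from -0.98 to 1.23.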

Other observations

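Among genes of the wider list that were picked after their values were seen, CYLD, a deubiquitinase that restrains NF-kB, read 391.2 and 369 in H1R and 254 in H1L, against 221.7 and 239 in WT, in the brightest of its 6 probe sets (limma adjusted p = 0.459 for H1R against WT). PARP9, an interferon-responsive gene, read 27.2 and 14.4 in H1R and 2.1 in H1L, against 23.6 and 33.1 in WT (limma adjusted p = 0.485 for H1L against WT). Of these PARP9 values, those of replicate 1 of H1R and replicate 2 of WT alone were above the background limit.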
